A study of Mus musculus with 13 samples.

Results

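The genes described are 35 genes of G2/M and mitosis: mitotic cyclins, kinases, kinesins, checkpoint, kinetochore and cytokinesis genes. They were chosen by gene symbol, as rows of the authors' deposited tables whose gene name is one of the 35. Of them 18 were in at least 1 of the 3 tables and 17 in none, and the tables together hold 1592 genes. RNA was sequenced from primary astrocyte cultures of wild type C57BL/6 mice of post natal day 1-3, made from retinas and optic nerves and grown with serum. All cultures were held for 24 h with vehicle (4 samples), HLM006474 (3 samples), Ro5-3335 (3 samples) or SB431542 (3 samples). HLM006474 is known to block E2F transcription factors, Ro5-3335 the RUNX1 and CBFB pair, and SB431542 the type I receptor kinases for TGF-beta and activin. The labels state neither the doses nor whether replicates are separate animals or cultures. P-values then measure the spread between replicates only, and that may be technical.

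Each table compares 1 compound with the same 4 vehicle samples. It lists only genes with an adjusted p under 0.05 and a log2 fold change of at least 0.58 in either direction, a change of about 1.5-fold. Fold changes are given as log2 value ± standard error from the authors' deposited tables, so -1 is a fall to 50% of vehicle. Values per sample were not analysed here, and library depth is unknown. The adjustment of p covered 15169 genes for HLM006474, 13561 for Ro5-3335 and 15169 for SB431542.

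In G2 and mitosis, CDK1 bound to cyclin A and then to cyclin B phosphorylates the proteins that condense chromosomes and build the spindle. Aurora and Polo-like kinases act beside it, the spindle checkpoint holds anaphase until every kinetochore is attached, and the anaphase-promoting complex then destroys the cyclins. Most genes of this group are silent in resting cells and are switched on late in the cell cycle, through B-MYB and FOXM1 on the MuvB complex. MuvB reads the cell cycle genes homology region (CHR), and NF-Y reads nearby CCAAT boxes. E2F factors act mainly on the earlier G1/S genes. Cultured neonatal astrocytes keep dividing in serum, and transcripts of these genes are a usual measure of how many cells are cycling.

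Of the 35 genes, 15 were listed as lower under HLM006474 and 11 under Ro5-3335, with none listed as higher under either compound. Among the listed members the proliferation antigen gene Mki67 fell most under HLM006474, to 46.5% of vehicle. It stood at 62.2% under Ro5-3335, in the authors' deposited tables. Cyclin A2 (Ccna2) stood at 55.3% and 60.1% of vehicle in the same order, in the authors' deposited tables. No member was in the SB431542 table in either direction. Of all genes tested, 4.22% were listed as lower for HLM006474 and 2.32% for Ro5-3335, against 42.9% and 31.4% of the 35 genes. For SB431542, 4.93% of all genes tested were listed, and 0 of the 35. The members were chosen with earlier results known, so these counts carry no test. In RNA from whole cultures, fewer cycling cells and less of these transcripts per cell cannot be told apart.

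RefSeq promoters (GRCm38.p6, from 250 bases before to 50 bases after the start site) were matched for 29 of the 35 genes, with 31 promoters. Of the 29 matched genes, 22 held a CHR, 20 of them within 50 bases of the start site, and 22 held a CCAAT box. The CHR was searched as TTTGAA on both strands and was in 24 of the 31 promoters (77.4%), against 17.9% of all 32851 promoters of the same length. Within 50 bases of the start site it was in 22 of 31 (71.0%), against 4.94% of all promoters. Many of these lie just after the start site: counting only bases before it, TTTGAA was in 11 of 31 (35.5%), against 16.0% of all promoters. The CCAAT box, searched as CCAAT on both strands, was in 24 of 31 (77.4%), against 37.4% of all promoters. The CHR-like TTTAAA, which reads the same on both strands, was in 9 of 31 (29.0%), against 13.2%. An E2F site, searched on both strands as TTTCCCGC, TTTGGCGC, TTTCGCGC, TTTGCCGC, TTCCCGCC or TTTCCCGG, was in 2 of 31 (6.45%), those of Cdk1 and Birc5, against 5.08%. The E2F forms overlap each other in part, and a match is not a bound site. Of 47 G1/S and replication genes 40 were matched, and their promoters, also 47 in number, held the E2F site in 48.9% and TTTGAA in 19.1%. Of 80 other G2/M and mitosis genes 64 were matched, with 72 promoters. These held the E2F site in 19.4% and TTTGAA in 58.3%, so the shares of the 35 genes do not stand for all genes of this kind.

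The stretch from 150 to 10 bases before the start site holds both a CHR and a CCAAT box in 8 matched genes. They are Cdk1, Ube2c, Top2a and Mki67, which were listed as lower, and Cdc20, Kif11, Prc1 and Ect2, which were in no table. The first 6 are shown as examples of both kinds, to set the elements beside each other. Each is printed 5′ to 3′ on the strand of the gene, 141 bases long, with TTTGAA and CCAAT in capitals (TTCAAA and ATTGG where they lie on the other strand). The positions are chr10:69352922-69353062 (minus strand) for Cdk1, chr2:164769779-164769919 (plus) for Ube2c and chr11:99024199-99024339 (minus) for Top2a. Those of the others are chr7:135716389-135716529 (minus) for Mki67, chr4:118437353-118437493 (minus) for Cdc20 and chr19:37376232-37376372 (plus) for Kif11.
Cdk1: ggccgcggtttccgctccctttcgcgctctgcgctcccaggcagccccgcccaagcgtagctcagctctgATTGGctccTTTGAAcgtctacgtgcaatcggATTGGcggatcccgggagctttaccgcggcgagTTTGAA
Ube2c: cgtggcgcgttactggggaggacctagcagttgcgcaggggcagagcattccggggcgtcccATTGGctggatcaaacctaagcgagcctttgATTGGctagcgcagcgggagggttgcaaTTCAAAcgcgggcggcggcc
Top2a: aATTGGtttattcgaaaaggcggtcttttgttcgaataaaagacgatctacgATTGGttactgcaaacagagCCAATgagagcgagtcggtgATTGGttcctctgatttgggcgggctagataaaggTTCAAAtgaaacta
Mki67: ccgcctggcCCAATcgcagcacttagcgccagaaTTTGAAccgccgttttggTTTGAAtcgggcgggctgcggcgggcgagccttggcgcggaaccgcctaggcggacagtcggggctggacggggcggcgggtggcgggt
Cdc20: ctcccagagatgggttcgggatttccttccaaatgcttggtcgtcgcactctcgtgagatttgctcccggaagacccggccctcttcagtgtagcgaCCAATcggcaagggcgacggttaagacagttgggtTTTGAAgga
Kif11: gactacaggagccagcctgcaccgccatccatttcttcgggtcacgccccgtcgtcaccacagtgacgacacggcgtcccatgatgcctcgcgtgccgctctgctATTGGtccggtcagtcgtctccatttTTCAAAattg

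In Cdk1, Ube2c, Top2a, Cdc20 and Kif11 the last CHR starts between 15 and 29 bases before the start site. In Mki67 the last one starts 98 bases before it, after another at 116 bases. The next CCAAT box lies 33 bases upstream of that CHR in Cdk1, 28 in Ube2c, 35 in Top2a, 35 in Cdc20, 26 in Kif11 and 43 in Mki67, from first base to first base. Over the 21 member promoters that hold both, this distance had a median of 35 bases and ranged from 10 to 154. Where the pair spans the start site, as at both ends of this range, the count is 1 base larger than from first base to first base. A CHR was in 12 of the 15 promoters of genes in at least 1 table and in 12 of the 16 promoters of genes in no table. Over the whole stretch searched, the promoters of listed and unlisted members therefore carried the element in similar shares, 80% and 75%, with no test made. By gene it was in 12 of 15 and 10 of 14. Counting only bases before the start site, TTTGAA was in 4 of 15 (26.7%) listed and 7 of 16 (43.8%) unlisted promoters.

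**Figure D1:**
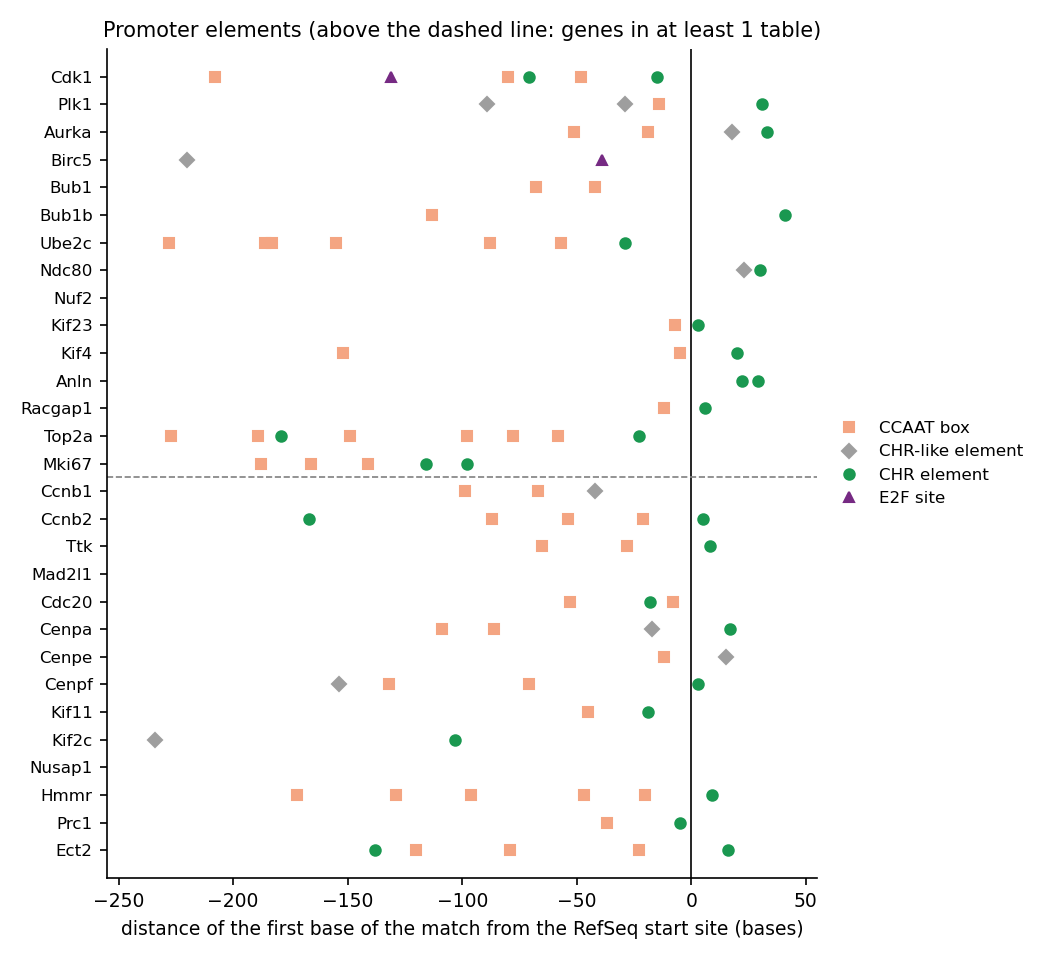
Position of CHR elements (green circles), CHR-like elements (grey diamonds), CCAAT boxes (orange squares) and E2F sites (purple triangles) relative to the RefSeq start site, for 1 promoter of each of the 29 matched genes. Most green circles lie within 50 bases of the start site, both above the dashed line (genes in at least 1 table) and under it (genes in no table).

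Among the cyclins and the control of CDK1, 2 of 5 genes were listed, both of them for HLM006474 and for Ro5-3335. Ccna2, the cyclin of S phase and early G2, stood at -0.85 ± 0.056 under HLM006474 (adjusted p = 1.12e-49) and -0.73 ± 0.056 under Ro5-3335 (adjusted p = 2.14e-36) in the authors' deposited tables. These were the lowest adjusted p values among the listed members for each compound. Cdk1, the mitotic kinase itself, stood at -0.68 ± 0.098 and -0.62 ± 0.098 for HLM006474 and Ro5-3335 in the authors' deposited tables. The cyclin B genes Ccnb1 and Ccnb2, partners of CDK1 at entry to mitosis, and the activating phosphatase gene Cdc25c were in no table.

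Foxm1, a transcription factor of the late cell cycle, stood at -0.79 ± 0.12 under HLM006474 and -0.63 ± 0.12 under Ro5-3335 in the authors' deposited tables. Of the regulators on a list of 30 cell cycle control genes, Mybl2, which encodes B-MYB, was lower under both, at -1.25 ± 0.16 and -0.89 ± 0.16 in the authors' deposited tables. The CDK inhibitor gene Cdkn1c was lower under HLM006474, at -1.38 ± 0.23 in the authors' deposited table. No other gene of that list, which includes Lin9, Lin54, Rb1, Rbl1, Ccnd1 and Cdkn1a, was in any table.

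All 4 genes of the mitotic kinases and the chromosomal passenger complex were listed for HLM006474. Plk1, the Polo-like kinase, stood at -0.84 ± 0.12 under HLM006474 and -0.77 ± 0.12 under Ro5-3335 in the authors' deposited tables. Aurkb, the catalytic subunit of the chromosomal passenger complex, stood at -0.92 ± 0.11 and -0.68 ± 0.11 in the same order, in the authors' deposited tables. Among the listed members Aurkb came next after Mki67 under HLM006474, at 52.7% of vehicle in the authors' deposited table. Its partner Birc5, survivin, was listed for HLM006474 alone, at -0.69 ± 0.10 in the authors' deposited table. Aurka, the centrosomal Aurora kinase, was also listed for HLM006474 alone, at -0.60 ± 0.10 in the authors' deposited table.

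Of the 4 spindle checkpoint genes 2 were listed. Bub1b, which encodes the checkpoint protein BUBR1, stood at -0.62 ± 0.15 under HLM006474 and -0.58 ± 0.15 under Ro5-3335 in the authors' deposited tables. Under Ro5-3335 it lies at the edge of the table, whose smallest change of any gene is 0.58. Bub1, a kinetochore kinase, was listed for HLM006474 alone, at -0.65 ± 0.11 in the authors' deposited table. Ttk (the kinase MPS1) and Mad2l1 (MAD2) were in no table. Of the anaphase-promoting complex genes, the ubiquitin-conjugating enzyme gene Ube2c stood at -0.59 ± 0.097 under HLM006474 and -0.77 ± 0.098 under Ro5-3335 in the authors' deposited tables. Ube2c had the largest fall of any listed member under Ro5-3335, to 58.5% of vehicle in the authors' deposited table. Cdc20, which encodes a co-activator of the anaphase-promoting complex, was in no table.

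At the kinetochore, Ndc80 and Nuf2, partners in the complex that grips microtubules, were listed for HLM006474, at -0.60 ± 0.11 and -0.58 ± 0.086 in the authors' deposited table. Nuf2 was the member nearest the limit of that table. The centromeric histone gene Cenpa and the large kinetochore genes Cenpe and Cenpf were in no table. Of the 5 kinesin genes, Kif4, a chromokinesin, was listed for HLM006474 at -0.70 ± 0.078 in the authors' deposited table. Kif23, the kinesin of centralspindlin, was listed for Ro5-3335 at -0.69 ± 0.15 in the authors' deposited table. Kif11, Kif20a and Kif2c were in no table, and neither were the spindle assembly genes Tpx2, Nusap1 and Hmmr.

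Among the 4 cytokinesis genes, Racgap1, the partner of KIF23 in centralspindlin, was listed for HLM006474 at -0.63 ± 0.082 in the authors' deposited table. Anln, the actin-binding protein anillin of the contractile ring, was listed for Ro5-3335 at -0.61 ± 0.063 in the authors' deposited table. Prc1 and Ect2 were in no table. The centralspindlin pair was thus split between the tables, and whether either gene differed between the compounds is given with the limits of the tables further on. Top2a, the topoisomerase that untangles sister chromatids, was listed for Ro5-3335 at -0.60 ± 0.046 in the authors' deposited table. Mki67, which coats mitotic chromosomes, stood at -1.11 ± 0.092 under HLM006474 (adjusted p = 7.24e-31) and -0.69 ± 0.092 under Ro5-3335 (adjusted p = 5.81e-12) in the authors' deposited tables.

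**Figure D2:**
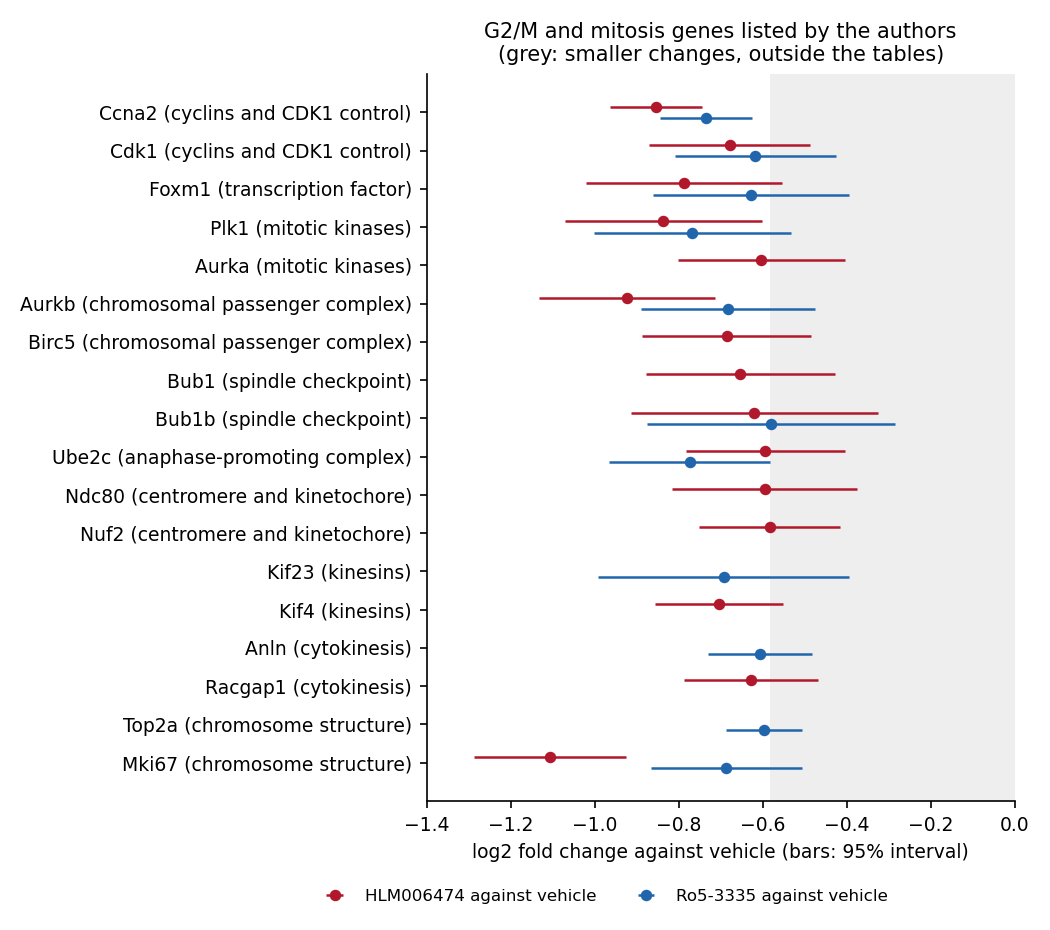
Log2 fold change against vehicle of the 18 genes in at least 1 table, under HLM006474 (red) and Ro5-3335 (blue), points being the authors' deposited values and bars 95% intervals. Mki67 under HLM006474 lies apart at -1.11, while most other points lie just beyond the grey zone that starts at -0.58, where changes are too small to be listed.

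For HLM006474 the 15 listed members ranged from -1.11 to -0.58 with a median of -0.68, where the median of all lower genes in the authors' deposited table was -0.84. For Ro5-3335 the 11 listed members ranged from -0.77 to -0.58 with a median of -0.68, where that of all lower genes in the authors' deposited table was -0.77. These medians describe listed genes only. Of the members, 1 (Mki67) fell at least 2-fold under HLM006474 and 0 under Ro5-3335, where 1.38% and 0.494% of all genes tested did. All 15 and all 11 listed members also had an adjusted p under 0.01 by the authors' Wald test, where 3.29% and 1.91% of all genes tested were lower at that level. In the authors' deposited tables the adjusted p of the listed members ran from 1.12e-49 (Ccna2) to 0.00037 (Bub1b) for HLM006474 and from 2.14e-36 (Ccna2) to 0.00125 (Bub1b) for Ro5-3335. An unlisted member may have changed by less than this limit, so absence from a table does not show an unchanged gene.

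The mean normalised count over all libraries, a level, can be compared between genes per kilobase of exon (GENCODE M21). By that measure Top2a was the most abundant of the 18 listed members at 967 per kilobase, then Racgap1 at 697 and Ccna2 at 467, and Kif4 was the least at 123. For the 8 members in both the HLM006474 and Ro5-3335 tables, the level in each group was estimated from the mean over the 13 samples and the fold changes, with the unlisted SB431542 change taken anywhere within ±0.58. Mki67 was estimated at 2918 to 3699 normalised counts in vehicle, 1356 to 1718 under HLM006474 and 1814 to 2299 under Ro5-3335. A change that is listed is wider than these ranges, so that they do not overlap vehicle follows from the listing. Ccna2 was estimated at 1844 to 2327 in vehicle, 1020 to 1287 under HLM006474 and 1109 to 1399 under Ro5-3335. Ube2c, where the order of the compounds was the other way round, was estimated at 732 to 919 in vehicle, 485 to 609 under HLM006474 and 428 to 537 under Ro5-3335. The ranges come from the unknown SB431542 change alone and hold no replicate error.

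**Figure D3:**
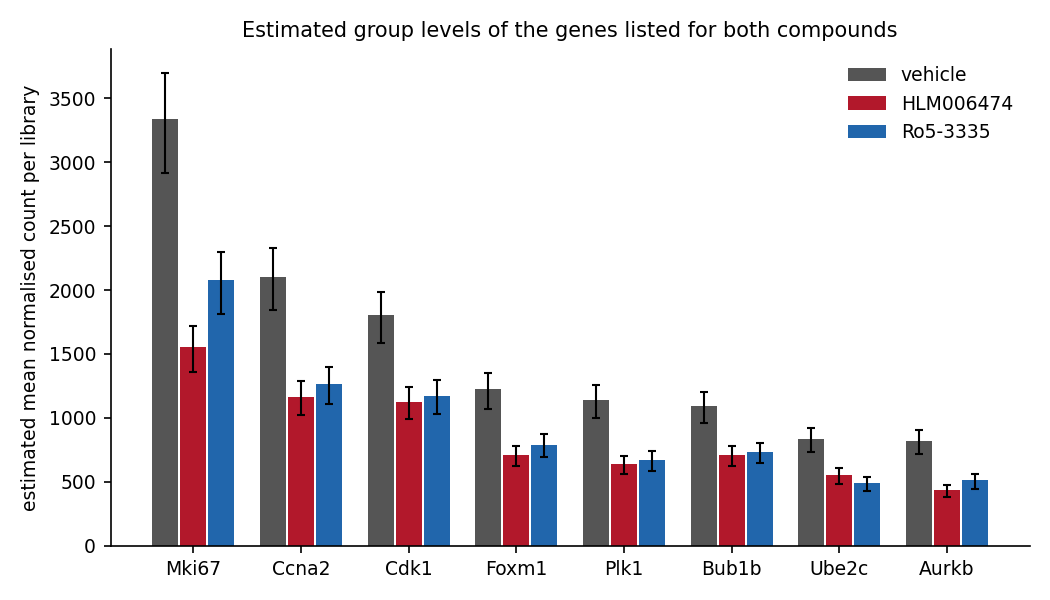
Estimated mean normalised count per library in vehicle (grey), HLM006474 (red) and Ro5-3335 (blue) for the 8 genes listed for both compounds. Bars take the SB431542 change as 0, and the black lines show the range for any SB431542 change too small to be listed. The vehicle bar is the tallest for each gene, from 3341 normalised counts for Mki67 to 820 for Aurkb.

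The standard errors give the uncertainty of each fold change and can be set beside those of listed genes of like mean count. They were nearly the same for HLM006474 and Ro5-3335 (median ratio 0.999), so they do not describe the spread within 1 group. Bub1b had an error of 0.15 in the authors' deposited HLM006474 table, 1.74 times the median of 47 listed genes with a mean count near its own of 921. Its error was larger than that of 40 of those 47 genes. Kif23 stood likewise for Ro5-3335, with an error of 0.15 that was 1.40 times the median of 27 such genes in the authors' deposited table. Ccna2, at a mean count of 1695, had an error 0.692 times the median of 24 such genes for HLM006474, and that of Top2a was 0.650 times the median of 5 for Ro5-3335, in the authors' deposited tables. Which libraries contributed to the larger errors of Bub1b and Kif23 was not analysed here.

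HLM006474 and Ro5-3335 were compared directly for the 8 members in both tables, with a z test (2-sided) of one log2 fold change minus the other, adjusted over all 211 genes in both tables. Mki67 was lower under HLM006474 than under Ro5-3335 (difference -0.42, 95% interval -0.67 to -0.17, adjusted p = 0.0152). Of all 211 genes 9.48% differed at an adjusted p under 0.05, and of the 8 members Mki67 alone. A count of 1 in 8 is near the share over all 211 genes. The differences of the other 7 members did not pass, with adjusted p from 0.459 to 0.998. For Ccna2 the difference was -0.12 (95% interval -0.28 to 0.035), and for Aurkb -0.24 (95% interval -0.54 to 0.054). Ube2c had a difference of 0.18 (95% interval -0.09 to 0.45), and was the 1 gene of the 8 with the larger fall under Ro5-3335. Among these 7 the lowest bound was -0.54, for Aurkb, and the widest interval was that of Bub1b, from -0.46 to 0.38, so the 7 genes are not shown to respond alike. The test treats the comparisons as separate although they share the vehicle samples, which makes its error too large where all groups vary alike. It also covers only genes that passed both tables.

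**Figure D4:**
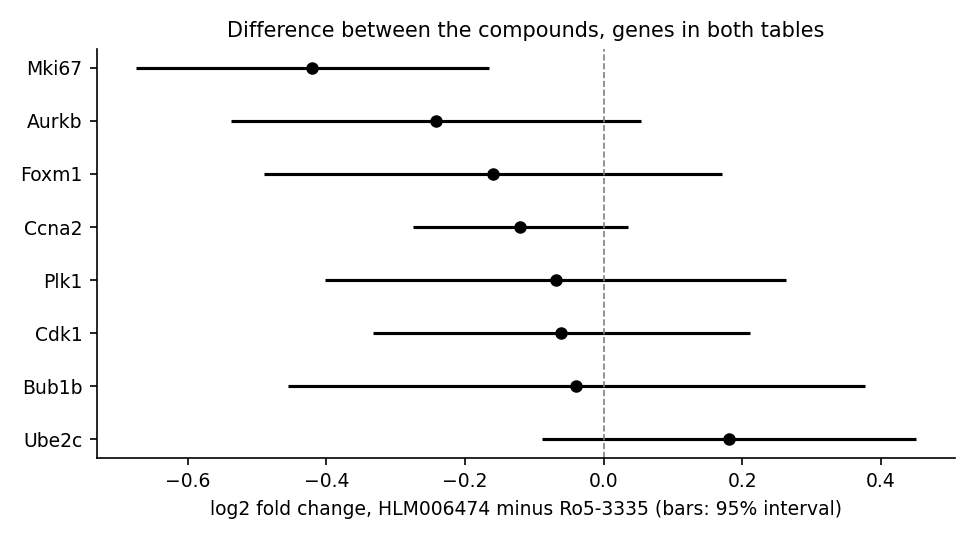
Difference of the log2 fold changes, HLM006474 minus Ro5-3335, for the 8 members in both tables, with 95% intervals. The interval of Mki67 lies wholly under 0, and the intervals of the other 7 genes include 0.

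Members in only 1 table were set against the limits of the other. If such a gene was tested there with a like standard error, its change in the other comparison was under 0.58 in size, since the fold limit was the wider one for each of the 18 genes. The part of the change beyond that limit was then tested (2-sided z test, chosen after seeing the data). Genes entered this test by passing the limits on the same values, and their change in the other comparison was not seen. Its p values therefore cannot establish a difference between compounds. Against SB431542, 2 of the 15 members listed for HLM006474 passed, Mki67 with an excess of 0.53 (adjusted p = 0.00196) and Ccna2 with 0.27 (adjusted p = 0.0123). Of all 694 genes so tested, 5.91% passed. With a standard error 1.5 times larger for the gene outside the table, 0 of the 15 passed, Mki67 having an adjusted p of 0.0590 and Ccna2 of 0.163. Of the 11 members listed for Ro5-3335, 0 passed against SB431542 and 0 had an unadjusted p under 0.05, where 0.658% of 304 genes passed. The 7 members listed for HLM006474 and not for Ro5-3335 exceeded the limit by 0.0029 to 0.12, and 0 passed or had an unadjusted p under 0.05, where 4.91% of 570 genes passed. The 3 listed for Ro5-3335 and not for HLM006474, Kif23, Anln and Top2a, exceeded it by 0.017 to 0.11, and 0 passed or had an unadjusted p under 0.05, where 0% of 186 genes passed. Presence in 1 table and absence from the other was thus not shown to be a difference between compounds for any of these 10 genes, the centralspindlin pair included.

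Of 80 other genes on a list for G2/M and mitosis, 28 were listed as lower under HLM006474 and 14 under Ro5-3335. None was listed as higher for these compounds, and 49 were listed for neither. Lmnb1, which encodes lamin B1 of the nuclear envelope, stood at -0.86 ± 0.064 and -0.64 ± 0.064 in that order, in the authors' deposited tables. The kinase gene Melk stood at -0.95 ± 0.094 and -0.73 ± 0.093 in the authors' deposited tables. Cdca5, which encodes the cohesion protein sororin, stood at -0.82 ± 0.10 and -0.65 ± 0.10 in the authors' deposited tables. The condensin subunit genes Ncapg, Ncapg2 and Ncaph were listed for HLM006474 alone, at -0.66 ± 0.084, -0.72 ± 0.097 and -0.65 ± 0.097 in the authors' deposited table. Cdca8, borealin of the passenger complex, stood at -0.64 ± 0.078, and Fbxo5, an inhibitor of the anaphase-promoting complex, at -0.90 ± 0.13, under HLM006474 in the authors' deposited table. Among the 14 genes of this list that were listed for Ro5-3335, the centromere protein gene Cenpn had the largest fall, -1.03 ± 0.13 in the authors' deposited table.

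Under SB431542, 2 genes of the list of 80 were listed, both as higher. Knstrn, a kinetochore adaptor of the spindle, was higher at 0.67 ± 0.077 (adjusted p = 3.95e-16) and Pimreg, a mitotic regulator, at 0.60 ± 0.080 (adjusted p = 3.93e-12), in the authors' deposited table. Of all genes tested, 2.29% were listed as higher for SB431542, so 2 of 80 is near the share over all genes.

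Set beside the G1/S and replication genes, a smaller share of the G2/M and mitosis genes was listed. Of 47 G1/S and replication genes 38 (80.9%) were lower under HLM006474 and 20 (42.6%) under Ro5-3335, against 15 (42.9%) and 11 (31.4%) of the 35. The difference between the lists was not tested. Under HLM006474, 12 of the 47 fell at least 2-fold, against 1 of the 35. The licensing gene Mcm2 stood at -1.05 ± 0.065 and the chromatin gene Uhrf1 at -1.24 ± 0.081 under HLM006474 in the authors' deposited table. Mki67, with its fall to 46.5% of vehicle in the authors' deposited table, was that 1 member.

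**Figure D5:**
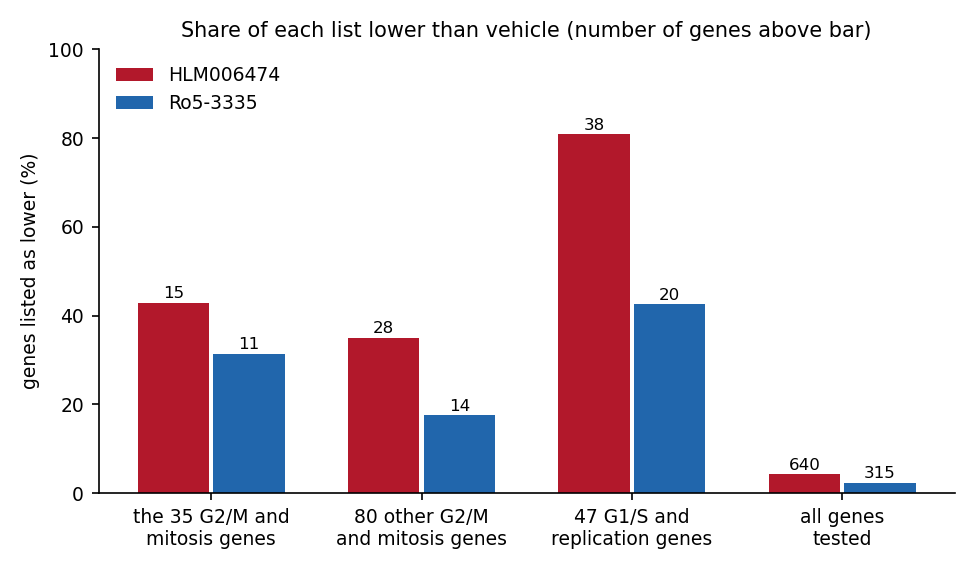
Share of genes listed as lower than vehicle under HLM006474 (red) and Ro5-3335 (blue), in the 35 genes, 80 other G2/M and mitosis genes, 47 G1/S and replication genes and all genes tested, with the number of genes above each bar. The 35 genes stand at 42.9% and 31.4%, between all genes tested (4.22% and 2.32%) and, for HLM006474, the G1/S genes at 80.9%.

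Markers of cells other than astrocytes also moved under HLM006474. Of 8 oligodendrocyte lineage markers 7 were lower, including the precursor markers Pdgfra at -0.84 ± 0.14 and Cspg4 at -1.01 ± 0.14 in the authors' deposited table. Of 10 microglia and macrophage markers 3 were lower and 1 higher under HLM006474. Tmem119 was lower at -1.08 ± 0.070 and Lyz2 was higher at 1.08 ± 0.18 in the authors' deposited table. Neither marker list had a gene in the Ro5-3335 table, where 11 members were lower. Under SB431542 4 of the 10 microglia and macrophage markers were lower and 2 higher, with no member listed. The 2 higher were Lyz2 at 0.65 ± 0.18 and Cd68 at 0.72 ± 0.075, and Tmem119 was among the 4 lower at -4.00 ± 0.11, in the authors' deposited table. The precursor marker Cspg4 was also lower under SB431542, at -1.04 ± 0.14, and the astrocyte marker Kcnj10, at -0.77 ± 0.037, in the authors' deposited table. Among 8 astrocyte markers, Fabp7 alone was listed for HLM006474 and for Ro5-3335, at -0.64 ± 0.055 and -0.67 ± 0.055 in the authors' deposited tables. Fabp7 had a mean normalised count of 18965 in the authors' deposited tables, and the levels of the astrocyte markers in no table, Gfap and Aqp4 among them, were not analysed here. None of the 4 endothelial markers was in a table. Of 5 pericyte and fibroblast markers 1 was lower under HLM006474 and 1 under SB431542, and of 4 neuronal markers 1 was lower under HLM006474 and 1 under Ro5-3335. The part of these cells in the lower mitosis transcripts was not tested.

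Some members share exon bases with a neighbour, and whether the reads were counted by strand is not given in the sources used here. In GENCODE M21, 22.8% of the exon bases of Ube2c overlap Tnnc2, 15.1% of those of Kif4 overlap Pdzd11 and 10.4% of those of Ccna2 overlap Exosc9, each on the opposite strand. Exon overlap was 7.09% for Plk1, on the opposite strand, and 5.18% for Foxm1, on the same strand. Kif4 also has a pseudogene named in the annotation. The values of these 5 genes are uncertain, and the share of their reads that came from a neighbour was not tested. Among members in no table, exon overlap was largest for Kif20a (31.8%) and Prc1 (21.8%).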

How the data were processed

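RNA-seq libraries of 13 mouse astrocyte cultures are represented here by 3 result tables that set each compound against vehicle. CASAVA 1.8, STAR 2.7, DESeq2 1.30.1 and build GRCm38 are named, per the submitters' processing notes. Read counting, strand use included, is not given in the sources used here. Per the file headers, the deposited columns are a mean normalised count (a signal level over libraries), a log2 fold change, its error, a Wald score, and a p-value with its adjusted p-value. Counts per sample were not analysed here, so no new test per gene was made and depth is unknown. The mean count was identical for all 211 genes shared by the HLM006474 and Ro5-3335 tables.

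Members, gene lists and tests were chosen with earlier results of these data known. The number of genes tested was the smallest that made nearly the most ranks, from p over adjusted p, whole within 0.02. It made 80.3%, 83.7% and 80.7% of them whole for HLM006474, Ro5-3335 and SB431542. This step and the z test, adjusted by the Benjamini-Hochberg method, were tested on simulated data. Every member in a table is named. From the other lists, those named come from the 10 lowest adjusted p values in each table, markers being examples chosen after their values were seen. Python 3.11.15, scipy 1.17.1 and pandas 2.3.3 were used.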

Additional observations from a re-analysis of the deposited data

How the results depend on the processing

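The tables hold no values per sample, so no replicate could be left out. No paired analysis was possible because the tables carry no columns for the replicates that share numbers. With a fold change of at least 2, the members listed went from 15 to 1 for HLM006474 and from 11 to 0 for Ro5-3335. The other G2/M and mitosis genes went from 28 to 0 for HLM006474, from 14 to 1 for Ro5-3335 and from 2 to 0 for SB431542. With an adjusted p under 0.01 the counts of the 35 genes and of the other G2/M and mitosis genes did not change, the G1/S genes went from 38 to 35 for HLM006474 and from 20 to 18 for Ro5-3335, and the 1 member that differed between HLM006474 and Ro5-3335 (Mki67) became 0. With the shared vehicle samples taken out of the error, Mki67 had an adjusted p of 0.000236 and was still the 1 member to pass. Without the members that overlap another gene's exons or have a named pseudogene, an alternative chosen after seeing the data, 10 remained listed for HLM006474 and 7 for Ro5-3335. With a standard error 1.5 times larger for genes outside a table, for this test an alternative chosen after seeing the data, the members beyond the SB431542 limit went from 2 to 0 for HLM006474, with Mki67 at an adjusted p of 0.0590 and Ccna2 at 0.163. The largest bound moved from 0.58 to 0.59. Counting only bases before the start site, TTTGAA was in 11 of the 31 member promoters in place of 24, and in 16.0% of all promoters. A mean count of at least 500 left 13 and 11 members listed. No member is in the SB431542 table, so the planned z tests of its differences from HLM006474 and Ro5-3335 had no gene to test.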
